A study of Arabidopsis thaliana x Arabidopsis lyrata and Arabidopsis thaliana x Arabidopsis halleri with 18 samples.

Results

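In F1 hybrids of *Arabidopsis thaliana*, 56 genes favoured 1 parental allele in the lyrata-labelled plants and the other allele in the halleri-labelled plants. They were chosen by their allele ratio, the log2 of the non-thaliana over the thaliana allele value in a plant. Its mean had to be at least 0.75 over the 9 plants of one hybrid and at most -0.75 over the 9 plants of the other. The 2 allele values together, less the 2 that the deposited values add, also had to average at least 20 in each hybrid. Of 16419 genes in the files, 9003 passed that limit on the sum, and the 56 genes were 0.622% of these. In 20 of them the non-thaliana allele led in lyrata-labelled plants, and in 36 the thaliana allele led there. The allele ratios and their difference between the hybrids chose the genes, so both are given as a description, with no test.

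The lyrata-labelled plants (Col-0xMN47) were F1 hybrids of *A. thaliana* Col-0 with *A. lyrata* by their labels, and the halleri-labelled plants (Col-0xh2.2) were F1 hybrids of Col-0 with *A. halleri*. All were 4 weeks old, and each hybrid had 3 groups of 3 plants. The cold groups spent 1 hour at 4 °C and the dehydration groups lay off their medium for 1 hour at 22 °C, both in dim light, and the standard groups stayed at 22 °C. Each library came from the aerial part of 1 plant, although the labels call the standard material leaf samples, and p-values measure the spread between these plants. The column heads contradict these labels, because the 9 files of lyrata-labelled plants name an *A. halleri* allele beside the thaliana one and the other 9 name an *A. lyrata* allele. The second allele is therefore called non-thaliana here, and no difference can be given to one relative or the other. Each parent species varies within itself, and the labels do not say whether the plants of a hybrid shared the same parent individuals.

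In an F1 hybrid both parental genomes sit in the same nuclei and meet the same transcription factors. A lasting difference between the alleles of a gene is therefore usually read as a difference in cis, in the promoter, enhancers or transcript of that gene. *A. lyrata* and *A. halleri* are perennial outcrossing relatives of the annual, selfing *A. thaliana*, and *A. halleri* is known for tolerating and accumulating zinc and cadmium.

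The authors' values are scaled to near-equal library totals, from 1524104 to 1531268. Thaliana alleles took 49.1% to 51.1% of a library, except in lyrata-labelled dehydration replicate 2, where they took 61% and the median allele ratio was -0.66. That library, lyrata-labelled standard replicate 1 (TMM scaling factor 0.772) and halleri-labelled cold replicate 1 (factor 1.17) stood apart from the rest. In 5 of the 6 dehydration libraries whole numbers were missing from the values at regular steps, from which 930872 to 1430056 reads are implied, so these were shallower. The 5 leaf markers of 10 that the files held summed to between 14943 and 104421 per library. The 4 root markers held, of 6, summed to 14 or less, and the 5 floral organ markers held, of 7, to 42 or less. Root hair gene EXPA7 was at 0 in 4 of the 6 groups, and the floral regulators AP1 and LFY were at 0 in all 6 groups. Summed leaf markers were lower in cold than in standard plants, at 14943 to 31564 against 36349 to 104421 in lyrata-labelled plants and 26102 to 34159 against 80345 to 98333 in halleri-labelled plants. Their part in the results was not tested.

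Bias of this size was common in either hybrid, and bias that turned round was rare. The ratio reached 0.75 in 905 genes of lyrata-labelled plants and 1152 of halleri-labelled plants, and 482 of these were shared. It fell at or below -0.75 in 1133 genes of lyrata-labelled plants and 893 of halleri-labelled plants, with 411 shared. Among the 20 genes led by the non-thaliana allele in lyrata-labelled plants, the difference between the mean ratios (lyrata-labelled minus halleri-labelled) ran between 1.53 and 6.98 with a median of 2.27. Among the other 36 genes its size ran between 1.51 and 6.42, and the median difference was -2.42. Just inside the threshold were AT2G23370 (mean ratio 0.77 in lyrata-labelled and -0.76 in halleri-labelled plants) and AT2G37660 (0.78 and -6.20). Just outside were the metal-transporting ATPase gene HMA1 (1.22 and -0.74) and the arabinogalactan protein gene AGP17 (1.32 and -0.74). In the other direction XTH8 (-0.75 in lyrata-labelled and 0.76 in halleri-labelled plants) and AT3G25400 (-0.75 and 1.64) were just inside. BBX8 (-0.73 and 1.22) and the flavonoid gene TT5 (-0.74 and 1.35) were just outside.

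**Figure D1:**
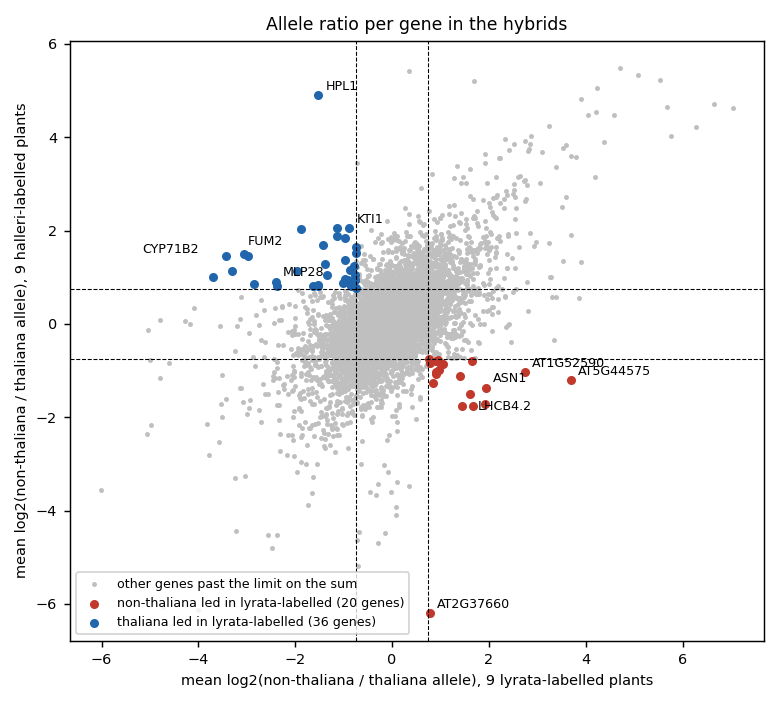
Mean allele ratio of each gene, as log2 of the non-thaliana over the thaliana allele, in 9 lyrata-labelled plants (x axis) and 9 halleri-labelled plants (y axis). Dashed lines mark 0.75 and -0.75, and the 20 red and 36 blue genes lie in the lower right and upper left corners, away from the grey run of genes biased alike in both hybrids.

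Single plants followed the group means less closely than the means alone show. The sign of the ratio was the same in all 9 plants of each hybrid, and opposite between the hybrids, in 4 of the 20 genes (GLP5, FdC2, AT1G52590 and ASN1) and in 12 of the 36. Of 360 plant values of the 20 genes, 48 were at 0 or on the other side of 0, as were 64 of 648 values of the 36 genes. The plants of the hybrids did not overlap in 6 of the 20 genes and 18 of the 36, against 0.966% of the 9003 genes with lyrata-labelled plants higher and 2.57% with them lower. The rule used the same ratio, so nothing is read from these counts. The sign held in all 6 group means for 16 of the 20 genes and 30 of the 36. The other 10 were IMPL1, AT2G33220, LHCB4.2, EMB1080, CTF2B, AT3G25400, NIT2, HPL1, CYP71B11 and AT5G44005. When the median of the plants replaced the mean, 10 of the 20 genes and 30 of the 36 still met the rule. Without the 3 libraries that stood apart 25 and 32 genes met it, of which 16 and 29 were among those described here. Without lyrata-labelled dehydration replicate 2 alone, 23 and 26 genes met it, of which 20 and 25 were among those described here. With the ratio centred per library 25 and 29 genes met it, of which 20 and 29 were among them, so the sizes of both directions depend on that library balance.

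**Figure D2:**
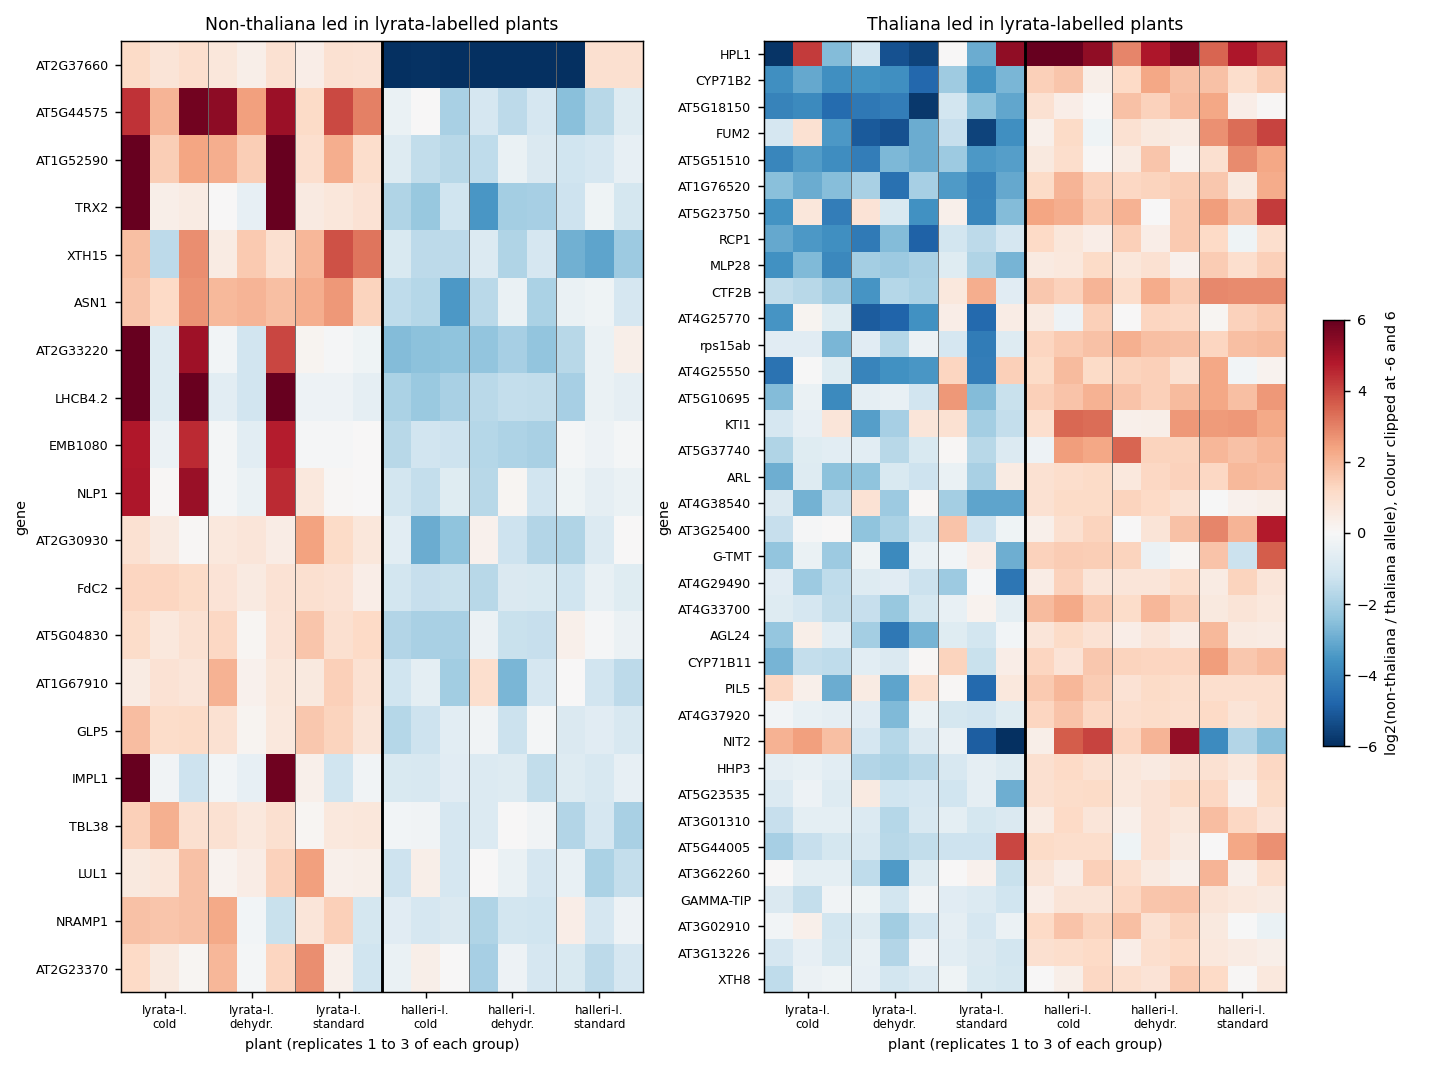
Allele ratio of the 20 genes led by the non-thaliana allele in lyrata-labelled plants (left) and of the 36 led there by the thaliana allele (right), 1 column per plant in 6 groups of 3 and 1 row per gene, ordered by the size of the difference between the hybrids. Red stands for a higher non-thaliana allele and blue for a higher thaliana allele on a log2 scale clipped at -6 and 6. Most rows change colour at the black line between the hybrids, while rows such as LHCB4.2 and TRX2 owe their lyrata-labelled mean to 2 or 3 dark plants.

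The thaliana promoters of 4 of these genes are shown. For 3 of them the reason is a steady sign in all 18 plants and no annotated gene overlapping the window. FUM2 is shown for a ratio that also shifted with treatment. CYP71B2 and AT5G18150 had the widest differences between the hybrids among such steady genes of their direction. GLP5 was the only such gene of its direction, and its difference of 1.91 was below the median of 2.27 there. GLP5 stands for the genes led by the non-thaliana allele in lyrata-labelled plants, and CYP71B2, AT5G18150 and FUM2 for the other direction. Each stretch is the 250 bases before the annotated start of the gene in RefSeq's TAIR10.1 assembly of *A. thaliana*, written 5′ to 3′ on the strand of the gene. Capitals mark a G-box (CACGTG, which holds the abscisic acid response core ACGTG on both strands) or a TATA box (TATAAA, sense strand only). The windows are chr1:3093394-3093643 (GLP5, plus strand), chr1:4458752-4459001 (CYP71B2, plus strand), chr5:6000555-6000804 (AT5G18150, minus strand) and chr5:20729181-20729430 (FUM2, plus strand).
GLP5: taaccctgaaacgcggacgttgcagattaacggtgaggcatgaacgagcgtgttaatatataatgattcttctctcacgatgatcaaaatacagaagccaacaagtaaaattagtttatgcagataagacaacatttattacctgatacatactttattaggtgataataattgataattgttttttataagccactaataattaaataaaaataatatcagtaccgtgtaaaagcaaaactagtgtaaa
CYP71B2: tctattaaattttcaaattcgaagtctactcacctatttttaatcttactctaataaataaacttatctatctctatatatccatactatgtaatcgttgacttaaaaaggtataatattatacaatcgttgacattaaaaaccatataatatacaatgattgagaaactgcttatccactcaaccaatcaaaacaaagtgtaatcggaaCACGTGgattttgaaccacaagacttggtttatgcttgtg
AT5G18150: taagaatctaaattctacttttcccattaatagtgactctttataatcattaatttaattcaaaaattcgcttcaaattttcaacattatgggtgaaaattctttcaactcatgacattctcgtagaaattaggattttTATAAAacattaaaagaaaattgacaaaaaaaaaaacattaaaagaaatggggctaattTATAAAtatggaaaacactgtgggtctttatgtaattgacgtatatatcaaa
FUM2: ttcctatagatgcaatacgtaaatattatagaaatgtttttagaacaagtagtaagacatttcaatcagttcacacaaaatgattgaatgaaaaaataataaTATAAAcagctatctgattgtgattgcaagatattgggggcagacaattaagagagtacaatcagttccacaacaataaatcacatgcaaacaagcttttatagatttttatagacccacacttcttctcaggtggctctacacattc
The CYP71B2 window held a G-box that begins 40 bases upstream of the start. The AT5G18150 window held TATAAA beginning 111 and 52 bases upstream, and the FUM2 window held it 148 bases upstream. None of the 5 motifs searched was found in the GLP5 window. Over the same window, TATAAA on the sense strand was in 3 of the 20 promoters (15%) and 18 of the 36 (50%), against 32.2% of the 16404 promoters of all genes matched to the annotation. The ACGTG core, on either strand, was in 4 of 20 and 12 of 36, against 23.8% of all. The G-box was in 2 of 20 and 2 of 36 (7.69% of all), and the dehydration-responsive core CCGAC, bound by the CBF factors, in 1 of 20 and 2 of 36 (12.4% of all). The evening element AAATATCT of clock-controlled genes was in 0 of 20 and 1 of 36 (4.83% of all). These matches describe the thaliana sequence alone, since no sequence of the other allele was used here.

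Among the 20 genes led by the non-thaliana allele in lyrata-labelled plants, those of steady sign in every plant were ASN1, AT1G52590, FdC2 and GLP5. ASN1 encodes the glutamine-dependent asparagine synthetase that is known to be induced by darkness and sugar starvation. Its non-thaliana allele had between 27 and 1245 units of the deposited value (median 90) in lyrata-labelled plants and between 5 and 136 (median 29) in halleri-labelled plants. Its thaliana allele had between 6 and 550 (median 27) in lyrata-labelled and between 24 and 450 (median 54) in halleri-labelled plants. The ASN1 ratio averaged 1.94 ± 0.51 in lyrata-labelled and -1.37 ± 1.00 in halleri-labelled plants (SD, n = 9 each, over the 3 conditions), and the plants of the hybrids did not overlap. Its level moved over a wide range between plants while the bias kept its side.

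AT1G52590, annotated as a putative thiol-disulfide oxidoreductase, had a ratio between 1.00 and 6.67 (median 2.16) in lyrata-labelled plants and between -1.66 and -0.41 (median -1.02) in halleri-labelled plants. Its non-thaliana allele averaged 304 in lyrata-labelled and 39.1 in halleri-labelled plants, and its thaliana allele 60.1 and 76.6. The ferredoxin-like gene FdC2 was among the least variable, with 0.91 ± 0.31 in lyrata-labelled and -1.07 ± 0.37 in halleri-labelled plants (SD, n = 9 each). GLP5, a germin-like protein of the apoplast, had 1.06 ± 0.52 in lyrata-labelled and -0.86 ± 0.52 in halleri-labelled plants (SD, n = 9 each). The non-thaliana allele of GLP5 had a median of 191 in lyrata-labelled and 84 in halleri-labelled plants, and its thaliana allele had medians of 96 and 152.

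The largest difference belonged to AT2G37660, which encodes a protein with an NAD(P)-binding Rossmann fold. In lyrata-labelled plants its alleles were close, with ratios between 0.35 and 1.15. In halleri-labelled plants the non-thaliana allele of AT2G37660 was at 2, 2 and 1 in cold, 1, 3 and 1 in dehydration and 1, 229 and 161 in standard plants, where 1 is the lowest value a file can hold. Its thaliana allele in the same plants was at 489, 123 and 104 in cold, 723, 980 and 1117 in dehydration and 580, 118 and 83 in standard plants. The non-thaliana allele was thus near the floor in 7 plants, and in standard replicates 2 and 3 it was the higher allele, with a ratio of 0.96 in each. The mean of -6.20 ± 4.27 (SD, n = 9) therefore averages plants of unlike kinds.

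AT5G44575, an uncharacterized gene, had the highest mean ratio in lyrata-labelled plants, 3.70 ± 1.62, against -1.21 ± 0.78 in halleri-labelled plants (SD, n = 9 each). Its thaliana allele had a median of 2 in lyrata-labelled and 4 in halleri-labelled plants, so single reads weigh on both means. XTH15, an enzyme that cuts and rejoins cell wall xyloglucan, had ratios between -1.59 and 3.81 in lyrata-labelled and between -3.18 and -0.81 in halleri-labelled plants. Of the lyrata-labelled plants, cold replicate 2 alone fell below 0 for XTH15, with values of 1 and 3. AT5G04830, of the nuclear transport factor 2 family, averaged 0.96 ± 0.44 in lyrata-labelled and -0.98 ± 0.87 in halleri-labelled plants (SD, n = 9 each).

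A second kind of gene in this direction owed its mean to a few plants. In 7 of the 20 genes the sorted ratios of the lyrata-labelled plants held a gap of at least 3 on the log2 scale, and in AT2G37660 those of the halleri-labelled plants did. Such a gap was seen in 119 of the 9003 genes in lyrata-labelled plants (1.32%) and in 10 in halleri-labelled plants (0.111%). A wide gap raises a mean by itself, and the rule used that mean. AT1G52590 was 1 of the 7, but its ratio was 1.00 or higher in every lyrata-labelled plant, so its side did not rest on a few plants. LHCB4.2 is a minor antenna protein (CP29) of photosystem II and has near-identical relatives, so reads may be split between copies. Its thaliana allele was at 37, 1411 and 36 in cold, 1836, 1692 and 44 in dehydration and 3873, 3032 and 2998 in standard lyrata-labelled plants. The non-thaliana allele of LHCB4.2 was at 2692, 822 and 2177 in cold, 1182, 775 and 3127 in dehydration and 3114, 2430 and 2080 in standard lyrata-labelled plants. The thaliana allele was thus low in cold replicates 1 and 3 and dehydration replicate 3, where the non-thaliana allele was not, and the other 6 plants leaned to the thaliana allele. In halleri-labelled plants the LHCB4.2 ratio lay between -2.24 and -0.41 in every plant.

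The same 3 plants stood apart in EMB1080, a protein of the cytosolic ribosome, in AT2G33220, the GRIM-19 subunit of mitochondrial complex I, and in NLP1, an amidohydrolase of polyamine synthesis. The thaliana allele of EMB1080 was at 22, 22 and 19 there, and at 215 to 950 in the other 6 lyrata-labelled plants. That of AT2G33220 was at 4, 2 and 1 there, and that of NLP1 at 5, 4 and 6. In all 3 genes the other 6 lyrata-labelled plants had ratios of 0.64 or lower, with medians over all 9 plants of -0.05 for EMB1080, -0.05 for AT2G33220 and 0.06 for NLP1. A related set of plants, cold replicate 1 and dehydration replicate 3, stood apart in AT1G52590, in the thioredoxin gene TRX2 and in IMPL1, an inositol monophosphatase. The thaliana allele of TRX2 was at 1 and 2 in these plants and at 55 to 208 in the other 7, while the non-thaliana allele was at 238 and 234. For IMPL1 the thaliana allele was at 1 in both plants, and the other 7 had ratios between -1.25 and 0.32. Among the 9003 genes past the limit on the sum, 36 had this division of 2 plants from 7, and 23 had that of 3 from 6. These were 59 of the 9003 genes, and 7 of the 56 described here. The rule favours genes with a few strongly biased plants, so nothing is read from the 7.

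**Figure D3:**
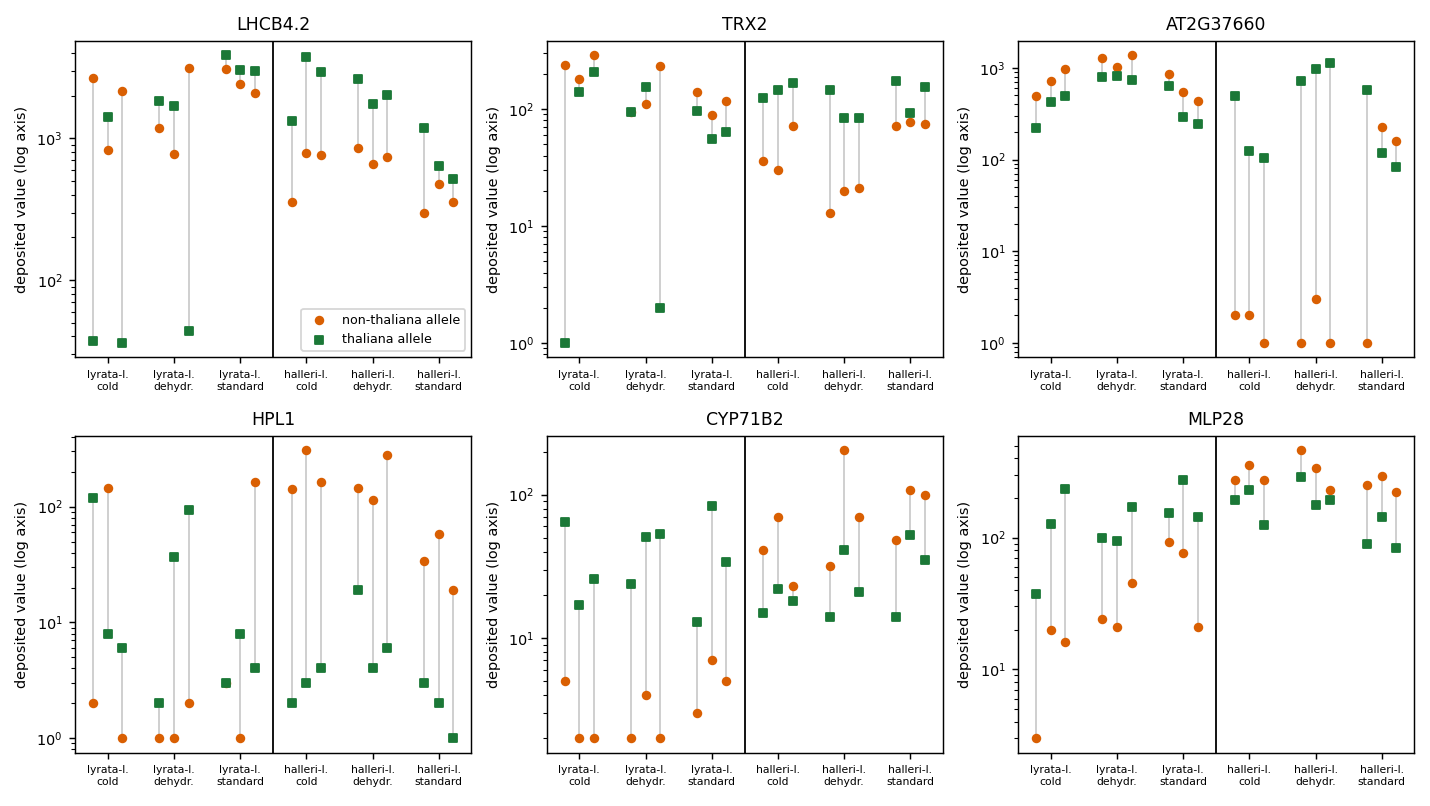
Deposited value of each allele (log axis, 1 is the floor) in every plant for 3 genes led by the non-thaliana allele in lyrata-labelled plants (top) and 3 led there by the thaliana allele (bottom), with circles for the non-thaliana allele, squares for the thaliana allele and a line joining the alleles of a plant. LHCB4.2 and TRX2 have squares far below the circles in 3 and 2 lyrata-labelled plants, AT2G37660 has circles at the floor in 7 halleri-labelled plants, and CYP71B2 and MLP28 are divided plant by plant by the hybrid.

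The 6 other genes of this direction had means between 0.77 and 0.94 in lyrata-labelled and between -1.27 and -0.76 in halleri-labelled plants. They were NRAMP1, a manganese and iron transporter, LUL1, a RING-type ubiquitin ligase, TBL38, of a family that acetylates cell wall polymers, AT2G23370, annotated as a cyclin, and the uncharacterized AT2G30930 and AT1G67910. The NRAMP1 ratio lay between -1.32 and 2.29 in lyrata-labelled plants, with 6 of 9 above 0. AT2G23370 was the weakest of the 20 in total value, at 26.4 units per plant.

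Among the 36 genes led by the thaliana allele in lyrata-labelled plants, CYP71B2 encodes a cytochrome P450. It had a non-thaliana allele between 2 and 7 (median 3) in lyrata-labelled plants and between 23 and 204 (median 70) in halleri-labelled plants. Its thaliana allele lay between 13 and 84 (median 34) in lyrata-labelled and between 14 and 52 (median 21) in halleri-labelled plants, so the thaliana allele overlapped between hybrids and the other did not. The CYP71B2 ratio was -3.44 ± 0.73 in lyrata-labelled and 1.45 ± 0.55 in halleri-labelled plants (SD, n = 9 each). CYP71B11 of the same family had a weaker bias, -0.75 ± 1.22 in lyrata-labelled and 1.51 ± 0.47 in halleri-labelled plants (SD, n = 9 each), and 3 lyrata-labelled plants leaned the other way.

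MLP28, a major latex protein-like gene, was led by the thaliana allele in all 9 lyrata-labelled plants (ratios of -3.88 to -0.74) and by the other allele in all 9 halleri-labelled plants (0.25 to 1.51). Its non-thaliana allele averaged 35.4 in lyrata-labelled and 300.2 in halleri-labelled plants, while its thaliana allele averaged 148 and 169. KTI1, a Kunitz trypsin inhibitor, had a non-thaliana allele of 1 to 66 (median 7) in lyrata-labelled and 6 to 1043 (median 112) in halleri-labelled plants. Of the lyrata-labelled plants 3 leaned to the non-thaliana allele of KTI1, and all 9 halleri-labelled plants did. Both genes have close relatives in the genome, so their reads may be split between copies.

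HPL1, the hydroperoxide lyase that makes green leaf volatiles, had the widest difference of the 36. Its thaliana allele was at 1 to 19 (median 3) in halleri-labelled plants, where the non-thaliana allele was at 19 to 307 (median 141). In lyrata-labelled plants the non-thaliana allele of HPL1 was at 2, 146 and 1 in cold, 1, 1 and 2 in dehydration and 3, 1 and 162 in standard plants. The thaliana allele in these plants was at 119, 8 and 6 in cold, 2, 37 and 93 in dehydration and 3, 8 and 4 in standard plants. In lyrata-labelled plants the bias of HPL1 thus rested on 6 of the 7 plants with a non-thaliana allele of 3 or less, as standard replicate 1 had 3 for each allele. In 3 of these 7 plants the thaliana allele too was at 6 or less. Cold replicate 2 and standard replicate 3 leaned as the halleri-labelled plants did.

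The 36 also included carriers and other enzymes. FUM2, the cytosolic fumarase that stores daytime carbon as fumarate, averaged -3.05 ± 2.19 in lyrata-labelled and 1.49 ± 1.52 in halleri-labelled plants (SD, n = 9 each). RCP1, which exports maltose from the chloroplast at night, averaged -2.85 ± 1.38 in lyrata-labelled and 0.85 ± 0.59 in halleri-labelled plants. In lyrata-labelled plants the non-thaliana allele of FUM2 and that of RCP1 each had a median of 2, near the floor of 1. Single reads therefore weigh on both lyrata-labelled means. AT1G76520, a PIN-like auxin carrier, had ratios between -4.46 and -1.93 in lyrata-labelled and between 0.56 and 2.24 in halleri-labelled plants. GAMMA-TIP, an aquaporin of the vacuole membrane, was the most abundant of the 36 at 557 units per plant, with -0.76 ± 0.44 in lyrata-labelled and 0.95 ± 0.48 in halleri-labelled plants (SD, n = 9 each). The thaliana allele of GAMMA-TIP had a median of 214 in lyrata-labelled and 115 in halleri-labelled plants, and its non-thaliana allele had medians of 99 and 323. G-TMT, a methyltransferase of vitamin E synthesis, averaged -1.34 ± 1.49 in lyrata-labelled and 1.06 ± 1.41 in halleri-labelled plants.

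Genes of less known function were also among the 36. AT5G18150, annotated as methyltransferase-related, averaged -3.71 ± 1.35 in lyrata-labelled and 1.01 ± 0.84 in halleri-labelled plants (SD, n = 9 each). Its non-thaliana allele was at 1 to 8 in lyrata-labelled and 26 to 131 in halleri-labelled plants. AT5G51510, a jagunal-like protein, had ratios of -4.13 to -2.17 in lyrata-labelled and 0.06 to 2.86 in halleri-labelled plants, with no overlap. AT5G23750, a remorin, had ratios of -4.17 to 0.81 in lyrata-labelled and 0.00 to 4.2 in halleri-labelled plants, which overlap. CTF2B, an oxidoreductase, averaged -1.14 ± 1.67 in lyrata-labelled and 2.04 ± 0.69 in halleri-labelled plants (SD, n = 9 each).

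Of the regulators among the 36, PIL5, a bHLH factor that phytochrome turns over in light, had a non-thaliana allele of 1 in lyrata-labelled cold replicate 3, dehydration replicate 2 and standard replicate 2, and its other 6 lyrata-labelled plants leaned to the non-thaliana allele. AGL24, a MADS-box factor that promotes flowering, averaged -1.52 ± 1.47 in lyrata-labelled and 0.80 ± 0.48 in halleri-labelled plants. ARL, an ARGOS-like regulator of organ growth, averaged -1.40 ± 1.12 in lyrata-labelled and 1.27 ± 0.42 in halleri-labelled plants (SD, n = 9 each). AT3G62260, a protein phosphatase 2C, averaged -0.88 ± 1.12 in lyrata-labelled and 0.87 ± 0.58 in halleri-labelled plants.

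Wide gaps among lyrata-labelled plants occurred in 5 of the 36 genes, HPL1, PIL5, NIT2, AT5G10695 and AT5G44005, and in none among halleri-labelled plants. NIT2, a nitrilase with near-identical neighbours, was led by the thaliana allele in lyrata-labelled standard replicates 2 and 3 (ratios of -4.93 and -6.23). These 2 plants had its lowest ratios, with the next at -1.73, and pulled its mean down to -0.98. The cold plants of this hybrid all leaned to the non-thaliana allele. AT4G25550, a subunit of pre-mRNA cleavage factor I, and the alpha/beta-hydrolase gene AT4G25770 lie 66.2 kb apart on chromosome 4. In both genes lyrata-labelled cold replicate 1, all 3 dehydration plants and standard replicate 2 had ratios of -3.51 or lower. The other 4 lyrata-labelled plants had ratios of -0.75 to 1.44 for AT4G25550 and -0.72 to 0.43 for AT4G25770. AT5G10695 averaged -1.14 ± 1.83 in lyrata-labelled and 1.89 ± 0.38 in halleri-labelled plants (SD, n = 9 each), and standard replicate 1 was the only lyrata-labelled plant led by its non-thaliana allele.

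Among the genes not yet described, rps15ab, HHP3, AT3G01310, AT4G29490, AT4G37920 and AT3G13226 kept their signs in all 18 plants. Their means lay between -1.52 and -0.86 in lyrata-labelled and between 0.81 and 1.70 in halleri-labelled plants. Of these rps15ab encodes a ribosomal protein, HHP3 a heptahelical membrane protein and AT4G29490 a metallopeptidase. The rest were XTH8, AT5G37740, AT4G38540, AT4G33700, AT5G23535, AT3G02910, AT5G44005 and AT3G25400, with means between -1.64 and -0.75 in lyrata-labelled and between 0.76 and 1.83 in halleri-labelled plants. In each of these 8 genes at least 1 plant was at 0 or on the other side of it.

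Among the 56 genes the allele that differed more between the hybrids was mostly the non-thaliana one. Among the 20 genes its mean was higher in lyrata-labelled than in halleri-labelled plants in 19, with a median log2 difference of 1.42, while the thaliana allele was higher in 2, with a median of -0.44. Among the 36 genes the non-thaliana allele was higher in lyrata-labelled plants in 0 and the thaliana allele in 25, with medians of -1.94 and 0.25. Over the 9003 genes past the limit the medians were -0.06 for the non-thaliana and 0.04 for the thaliana allele. The non-thaliana allele differed by more than the thaliana allele in 14 of the 20 and 32 of the 36 by the mean, in 17 and 34 by the median, and in 16 and 35 by the mean without the 3 libraries that stood apart. GLP5 and GAMMA-TIP were exceptions only by the mean over all plants. The exceptions by all 3 measures included XTH15, whose thaliana allele averaged 5.33 in lyrata-labelled and 41.2 in halleri-labelled plants, and EMB1080, whose thaliana allele averaged 375 and 1098 while the other averaged 501 and 530.2. Since the rule used the ratio of these values, the directions follow in part from it and get no test. How often the non-thaliana allele differed by more was not counted over the 9003 genes, so nothing is read from its counts here.

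**Figure D4:**
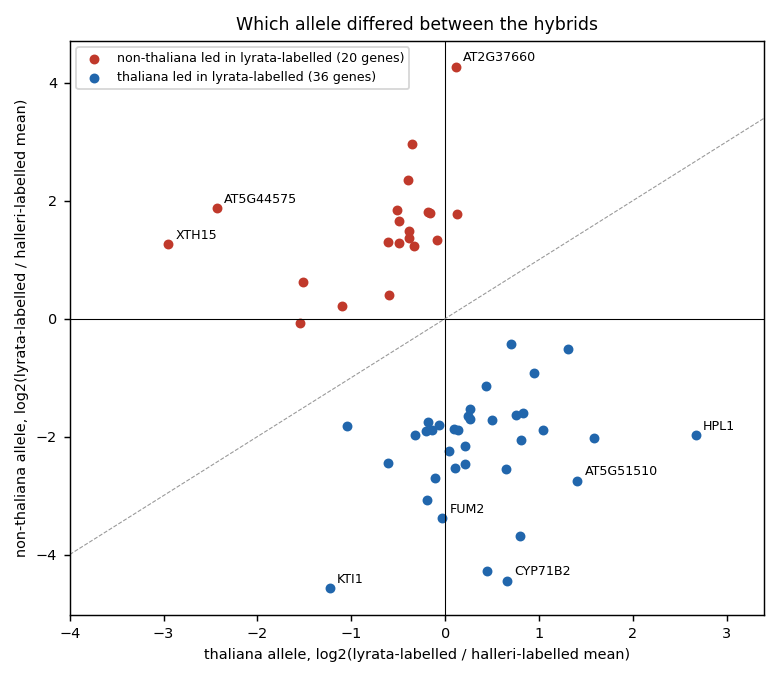
Log2 of the mean in lyrata-labelled over the mean in halleri-labelled plants for the thaliana allele (x axis) and the non-thaliana allele (y axis), 1 point per gene, with a dashed line where both alleles differ alike. The 36 blue genes all lie below 0 on the y axis, and of the 20 red genes 19 lie above it, while on the x axis, that of the thaliana allele, 2 of the red and 25 of the blue genes lie right of 0.

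Summed over both alleles, the total value was higher in lyrata-labelled than in halleri-labelled plants in 15 of the 20 genes and 4 of the 36, against 48.4% of the 9003 genes. On TMM-scaled values the median log2 difference was 0.56 over the 20 genes, -0.88 over the 36 and 0.01 over all genes tested. A limma fit called 10 of the 56 genes, 3 higher and 7 lower in lyrata-labelled plants, against 2.94% of 13058 genes (1.66% higher and 1.28% lower). The sum is made of the same values, in the same contrast, as the ratio that chose the genes, so nothing is read from that count. The 3 higher were AT1G52590 (log2 difference 1.44 ± 0.25 SE), AT2G37660 (1.68 ± 0.33) and AT5G44575 (1.94 ± 0.47). The scaled total of AT5G44575 averaged 45.5 in cold and 48.9 in dehydrated lyrata-labelled plants, against 8.54 and 2.46 in halleri-labelled ones. In standard plants it averaged 42.8 in lyrata-labelled and 84.9 in halleri-labelled plants, and the hybrids overlapped. The higher total of AT5G44575 in lyrata-labelled plants thus lay in the treated plants. The 7 lower were KTI1 (-2.56 ± 0.57), AT4G37920 (-1.67 ± 0.32), MLP28 (-1.50 ± 0.32), CYP71B11 (-1.41 ± 0.32), AT4G33700 (-1.40 ± 0.34), ARL (-1.28 ± 0.33) and AT5G18150 (-1.07 ± 0.28). Without halleri-labelled dehydration replicate 3 the count was 6.

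Next the total value of the genes was compared between treated and standard plants of a hybrid. All 56 genes passed the filters of every comparison. In dehydrated halleri-labelled plants 6 of the 56 genes changed, 2 higher and 4 lower, by limma with Benjamini-Hochberg adjustment over 13058 genes, against 2.97% of all genes (2.06% higher and 0.911% lower). AT5G10695, annotated as a methionyl-tRNA synthetase, had scaled totals of 806, 854 and 437 in dehydrated plants and 39.5, 6.36 and 17.0 in standard plants. It rose by 5.16 ± 0.95 (SE) on the log2 scale (limma adjusted p = 0.00666), and the plants of the 2 groups did not overlap. In dehydrated lyrata-labelled plants it had 587, 358 and 13.5, against 24.7, 4.74 and 5.02 in standard plants, a difference of 3.78 ± 0.95 that missed the threshold (limma adjusted p = 0.074). AT4G25550, the cleavage factor subunit, had 199.5, 216 and 265 in dehydrated and 123, 27.2 and 23.3 in standard halleri-labelled plants and rose by 2.33 ± 0.55 (limma adjusted p = 0.0249). In bulk tissue, fewer cells of a type and less RNA per cell cannot be told apart in any of these totals.

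The 4 genes that fell were a defence protein, a wall enzyme and 2 genes of less known function. KTI1 had 379, 13.9 and 5.31 in dehydrated and 1116, 1102 and 1083 in standard halleri-labelled plants and fell by 4.96 ± 0.99 on the log2 scale (limma adjusted p = 0.0103). XTH15 had 9.76, 15.9 and 1.06 in dehydrated and 172, 117 and 68.0 in standard plants, with a log2 change of -3.71 ± 0.92 (limma adjusted p = 0.0324). AT5G44575 had 4.34, 1.99 and 1.06 in dehydrated and 44.2, 17.3 and 193 in standard plants, with a log2 change of -3.71 ± 0.81 (limma adjusted p = 0.0165). AT3G13226, of the RecX family, had 22.8, 33.9 and 22.3 in dehydrated and 172, 92.6 and 116 in standard plants, with a log2 change of -2.17 ± 0.51 (limma adjusted p = 0.0241). In each of these 4 genes every dehydrated plant was below every standard plant. XTH15 and AT5G44575 passed the limit of 20 on the sum in halleri-labelled plants through the standard group alone, since the deposited totals of the other 2 groups averaged 11.8 and 5.67. Their fall is thus in part fixed by that limit, and nothing is read from the count of 4. In dehydrated lyrata-labelled plants AT5G44575 and XTH15 had log2 differences of 0.01 ± 0.81 and -0.36 ± 0.92. The count of 6 was 3 without dehydration replicate 1, 1 without dehydration replicate 2, 1 without dehydration replicate 3, 3 without standard replicate 2, 2 without standard replicate 3 and 13 without standard replicate 1. The dehydrated halleri-labelled libraries were also the shallowest, at 994177, 930872 and 1196829 implied reads, and the part of depth was not tested.

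In cold lyrata-labelled plants 1 of the 56 genes changed, against 0.881% of 13058 genes (0.636% higher). It was AT1G52590, with scaled totals of 583, 344 and 661 in cold and 189, 109 and 134 in standard plants, a rise of 1.85 ± 0.44 (limma adjusted p = 0.0469). In halleri-labelled plants it had 121, 98.0 and 98.9 in cold and 121, 83.6 and 121 in standard plants, where the groups overlapped. The call on AT1G52590 in cold was lost without any 1 of the 3 cold plants (adjusted p = 0.166, 0.0943 and 0.156 for limma without replicates 1, 2 and 3), without standard replicate 2 (0.112) or 3 (0.0943), and without the 3 libraries that stood apart (0.0527). None of the 56 passed limma in cold halleri-labelled plants (0.75% of all genes did) or in dehydrated lyrata-labelled plants (0.421%), where 12 and 15 had an unadjusted p under 0.05, as did 1825 and 2410 of the 13058 genes. In cold halleri-labelled plants 3 genes passed without standard replicate 1, 1 without cold replicate 1 and 1 without cold replicate 3. In dehydrated lyrata-labelled plants 4 passed without dehydration replicate 3 and 1 without standard replicate 1. Without standard replicate 1, 2 passed in cold lyrata-labelled plants, AT1G52590 among them.

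Next the change of the allele ratio with treatment was tested within a hybrid. The mean over 9 plants that chose the genes holds these groups, so the rule favours genes with 1 strongly biased group, and nothing is read from the counts. Without the most biased group of halleri-labelled plants the mean of the other 2 groups was 0.53 for FUM2, -0.53 for AT5G04830 and -0.0045 for NIT2, short of the threshold, and -0.77 for EMB1080. The changes of FUM2, AT5G04830 and NIT2 in halleri-labelled plants are thus in part fixed by the rule. Their adjusted p-values are given as description only. In halleri-labelled plants 2 of the 56 genes changed in cold, both lower, against 0.978% of 11655 genes (0.609% lower). In dehydration 3 changed, 1 higher and 2 lower, against 2.05% (0.909% higher and 1.14% lower). The same 3 standard plants served both comparisons. FUM2 shifted in both. Its thaliana allele was at 42, 84 and 90 in cold, 53, 128 and 100 in dehydration and 10, 3 and 7 in standard halleri-labelled plants. Its non-thaliana allele was at 52, 189 and 75 in cold, 101, 191 and 140 in dehydration and 66, 31 and 118 in standard plants. The FUM2 ratio was therefore 0.41 ± 0.72 in cold, 0.66 ± 0.23 in dehydration and 3.39 ± 0.68 in standard plants (SD, n = 3 each). The change was -2.98 ± 0.46 (SE) in cold (limma adjusted p = 0.0249) and -2.72 ± 0.46 in dehydration (limma adjusted p = 0.0271), and no treated plant reached a standard plant. In standard plants the FUM2 bias rested on thaliana values of 10 or less, so a few reads set it.

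AT5G04830 had ratios of -1.74, -1.95 and -1.95 in cold and 0.32, -0.08 and -0.37 in standard halleri-labelled plants, a change of -1.84 ± 0.33 (limma adjusted p = 0.0425). Its bias toward the thaliana allele in the halleri-labelled plants thus lay in the treated plants, as the standard plants were near equal. The ribosomal gene EMB1080 had ratios of -1.73, -1.86 and -1.93 in dehydrated and -0.13, -0.31 and -0.13 in standard plants, a change of -1.65 ± 0.25 (limma adjusted p = 0.0212). The dehydrated halleri-labelled plants had 1075, 1461 and 1617 for its thaliana allele and 324, 403 and 424 for the other. The standard plants had 1070, 931 and 949 for the thaliana allele of EMB1080 and 980, 751 and 866 for the other. NIT2 turned round, with 1.29, 2.05 and 5.29 in dehydrated and -3.77, -1.78 and -2.52 in standard halleri-labelled plants, a change of 5.57 ± 1.18 (limma adjusted p = 0.0477). In cold halleri-labelled plants NIT2 had 0.37, 3.62 and 4.04, a change of 5.36 ± 1.18 that missed the threshold (limma adjusted p = 0.0733). In cold lyrata-labelled plants NIT2 had 2.09, 2.45 and 1.81, against -0.36, -4.93 and -6.23 in standard plants, a change of 5.96 ± 1.21 (limma adjusted p = 0.177). NIT2 thus leaned to the non-thaliana allele in the cold plants of both hybrids and to the thaliana allele in the standard plants of both. Its opposite bias is absent in these conditions.

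**Figure D5:**
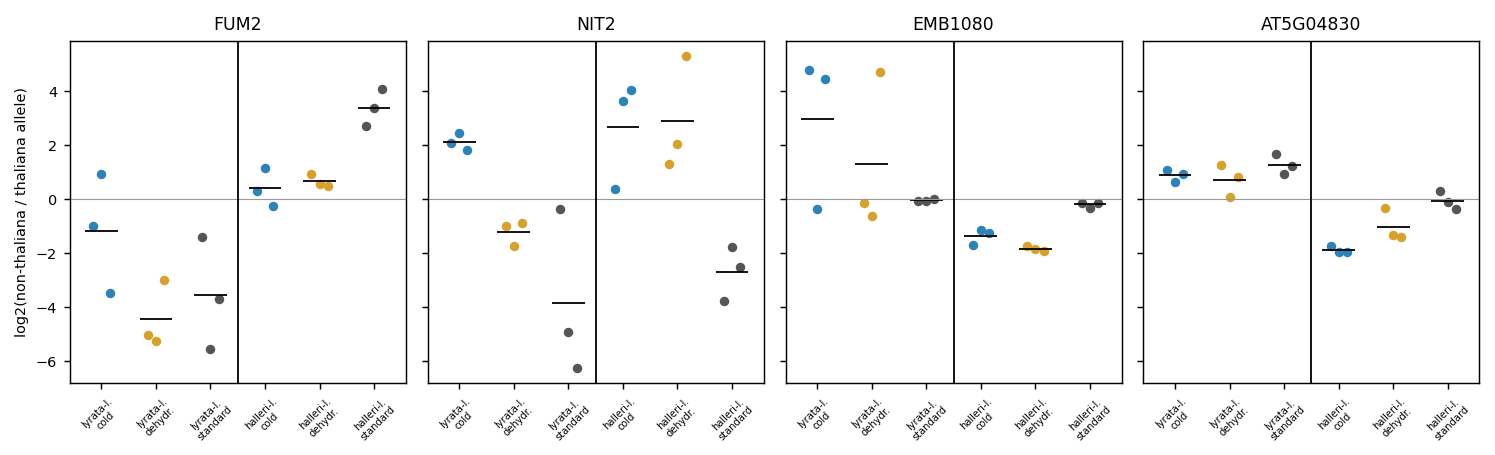
Allele ratio of every plant for the 4 genes whose ratio changed with treatment in halleri-labelled plants, with a bar at the mean of each group of 3. FUM2 is highest in the halleri-labelled standard plants, NIT2 lies below 0 there and above 0 in the treated plants, and EMB1080 and AT5G04830 are near 0 there and lower in the treated plants.

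These ratio calls depended on single libraries. Of 2 in cold, 0 remained without any of the cold plants, without standard replicate 2 or without standard replicate 3, and 5 passed without standard replicate 1. Of 3 in dehydration, 0 remained without any of the dehydrated plants or without standard replicate 3, 1 without standard replicate 2, and 7 passed without standard replicate 1. Without the 3 libraries that stood apart 0 passed in cold and 2 in dehydration. With the replicate number as a block, 0 passed in cold and 1, NIT2, in dehydration. Without lyrata-labelled standard replicate 1, 1 of the 56 passed in cold lyrata-labelled plants. With all libraries, no gene of 11697 passed limma in cold or dehydrated lyrata-labelled plants (0%), and 7 and 10 of the 56 had an unadjusted p under 0.05, as did 1145 and 1565 of all genes. The median size of the change of the ratio over the 56 genes was 0.80 in cold and 0.88 in dehydrated lyrata-labelled plants, and 0.60 and 0.57 in halleri-labelled ones. Over all genes tested it was 0.34 and 0.39 in lyrata-labelled and 0.33 and 0.36 in halleri-labelled plants. The rule favours genes with a few strongly biased plants, so nothing is read from this difference.

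Whether a treatment changed a gene differently in the 2 hybrids was tested by an interaction term. By limma no one of the 56 passed for the total in cold (lowest adjusted p = 0.304) or dehydration (0.261), or for the ratio in cold (0.171) or dehydration (0.128). Unadjusted, 10, 12, 10 and 10 of the 56 were under 0.05, as were 7.75%, 9.79%, 8.27% and 12.2% of all genes. Over all genes 2, 0, 5 and 8 passed. The calls above in one hybrid are therefore not shown to differ from the other hybrid.

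Genes of the cold, dehydration, clock and glucosinolate responses were looked up by name. Of lists of known genes, 8 early cold regulators and cold-regulated genes, 11 of the abscisic acid and dehydration response, 9 clock genes and 8 of glucosinolate synthesis and breakdown passed the limit on the sum, and 0 of them were among the 56. The means had opposite signs, short of the threshold, in 2, 1, 4 and 3 of them. The clock repressors CCA1 (0.12 in lyrata-labelled and -0.86 in halleri-labelled plants) and PRR5 (0.84 and -0.12) leaned one way, and LHY (-0.53 and 0.57) and TOC1 (-0.62 and 0.21) the other. RAV1, an early cold-induced factor, came closest among the cold genes with 0.62 in lyrata-labelled and -0.97 in halleri-labelled plants.

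By product names in the annotation, the 56 held 2 of 32 cytochrome P450 genes past the limit, 1 of 57 chloroplast photosynthesis genes (LHCB4.2) and 2 of 226 proteases and inhibitors (AT4G29490 and KTI1). They held 1 of 266 transporters by that wording (AT1G76520) and 1 of 172 ribosomal genes (rps15ab). The transporters NRAMP1, RCP1 and GAMMA-TIP, the ribosomal gene EMB1080 and the transcription factors AGL24 and PIL5 belong to classes that their product names do not state. None was, by that wording, among 421 transcription factors, 10 immune receptors, 77 receptor-like kinases and proteins, 41 F-box proteins, 16 glutathione transferases, 45 glycosyltransferases or 52 pentatricopeptide repeat proteins.

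The genes lay on all 5 chromosomes, 13, 11, 9, 9 and 14 of them on chromosomes 1 to 5. These are 23.2%, 19.6%, 16.1%, 16.1% and 25.0%, against 25.8%, 15.2%, 20.3%, 14.7% and 24.1% of the 9003 genes. The closest pairs of the same direction were AT4G25550 with AT4G25770, and AT5G23535 with the remorin gene AT5G23750 at 72.3 kb. FUM2 and AT5G51510 lie 187 kb apart, and both were led by the thaliana allele in lyrata-labelled plants. The mean total per plant had a median of 113 over the 20 genes and 70.2 over the 36, against 62.5 over the 9003. The annotated gene length had a median of 2034 bases over the 56 and 2604 over the 9003.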

How the data were processed

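RNA-seq libraries of 18 single F1 plants were grouped by hybrid and treatment, as labelled. Each deposited file gives a score per gene for 2 alleles, per the file headers. Judged by its values, this score holds scaled and rounded reads, with 1 added and library totals made near equal by the authors. The submitters' processing notes list TopHat2, SAMtools, DESeq2 and TAIR10 with neither version nor role. The assignment of reads to alleles is not stated there or in the labels. Strand was not kept by the kit, so antisense and overlapping genes share reads.

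Of 16419 genes, 16404 were found in the TAIR10.1 annotation, used for names, coordinates and promoters. Allele ratios used the values as deposited, so the 1 added pulls low genes toward 0. Totals were both alleles less 2, scaled by TMM, and tested as log2 of the total plus 2, which understates the change of low genes. The fit of 6 group means took genes whose deposited total reached 10 in 3 or more libraries, and the fit of ratios per hybrid took those with a mean total of 10 or more. R 4.3.3 with limma 3.58.1 (trend, robust) was used, with 2-sided p adjusted by Benjamini-Hochberg and called under 0.05, and Python 3.11.15, pandas 2.3.3 and matplotlib 3.10.9 for the rest. The tests were also run on simulated data. Because depth is unknown for most libraries, no counting interval is given.

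The genes and lists were chosen with earlier results of these data known. Named by rule were, per direction, the 10 largest differences, the 5 highest totals, the 2 genes on either side of the threshold, and up to 5 called genes per test and direction. Other members were named after their values were seen. The interaction test, the scaling as deposited, the fit without 3 libraries and the comparison of alleles by median were added after the data were seen. No 2 libraries were identical, and within a group the lowest correlation was 0.824. Other settings are given in the closing section.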

Additional observations from a re-analysis of the deposited data

How the results depend on the processing

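Results are counts of the 56 genes called unless stated. With a mean total of at least 50 required, 13 genes of the first direction and 17 of the second met the rule, and leaving out 1 library gave 16 to 24 and 26 to 40. For the total, leaving out 1 library gave 6 to 13 between the hybrids, 0 to 2 for cold and 0 to 4 for dehydration in lyrata-labelled plants, and 0 to 3 for cold and 1 to 13 for dehydration in halleri-labelled plants. For the ratio it gave 0 to 1 for cold and 0 for dehydration in lyrata-labelled plants, and 0 to 5 and 0 to 7 in halleri-labelled plants. For the total in cold lyrata-labelled plants the count of 1 became 0 under relative log expression scaling, 0 with the replicate block, 0 with only the compared groups fitted and 2 with the scaling as deposited. In dehydrated lyrata-labelled plants 0 became 1 with the scaling as deposited and 1 without the 3 libraries that stood apart. In cold halleri-labelled plants 0 became 1 with 10 added before log2 and 3 without those 3 libraries, and in dehydrated ones 6 became 2 with only the compared groups fitted. For the ratio in cold lyrata-labelled plants 0 became 1 without the 3 libraries. In cold halleri-labelled plants 2 became 1 with 0.5 added to each allele, 8 with a mean total of at least 50, and 0 with the replicate block, with only the compared groups, and without the 3 libraries. In dehydrated ones 3 became 6 with a mean total of at least 50, 1 with the replicate block and 0 with only the compared groups. The causes were not tested. Over all genes, only the compared groups gave 12 in place of 115 for cold lyrata-labelled totals, 129 in place of 388 for dehydrated halleri-labelled totals, and 8 in place of 114 and 1 in place of 239 for the halleri-labelled ratios. Of 391 values of named genes under other settings 271 kept their call, 120 lost it and 0 changed direction. Same-numbered plants did not move together (2 of 45 pairs had a correlation over 0.1, and 5 of 18 libraries were closest to their own number), so the block is no pairing. Scaled values without counts, 3 plants per group and the unresolved allele names limit these results.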
